A study of Mus musculus with 6 samples.

Results

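Tmem176a, Tmem176b and 6430571L13Rik were 3 of the 24421 genes in a count matrix from mouse regulatory T (Treg) cells, and 3 of the 11658 genes that passed the filter on low counts. They were selected on the comparison described here, because their read counts rose in every Treg library made without miR-142 and ranked among the smallest p-values of that comparison. Their fold changes are therefore given as a description, with no test. The libraries came from splenic CD4+YFP+ cells of female C57BL/6 mice aged 8 to 11 weeks. The 3 WT mice were Foxp3Cre and the 3 KO mice were Foxp3Cre miR-142 fl/fl, with 1 library per mouse, and the cells received no treatment before RNA extraction. Mice of both groups carried the Foxp3Cre allele, in which a fusion of Cre recombinase and yellow fluorescent protein is made from the Foxp3 promoter, so the deletion takes place in cells that switch Foxp3 on. A group with floxed alleles and no Cre was not analysed here. The study describes autoimmune illness in KO mice, so the KO cells came from mice of a line prone to inflammation, a difference that cannot be told apart from the deletion within the cells.

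Treg cells are CD4+ T cells that restrain other lymphocytes and depend on the transcription factor Foxp3. Tmem176a and Tmem176b encode related membrane proteins with several membrane-spanning segments that resemble the MS4A family and reside mainly in endosomal compartments, where they are thought to act as cation channels. Both are known from dendritic cells, macrophages and type 17 lymphocytes, and the Tmem176b protein has been described as an inhibitor of the NLRP3 inflammasome. 6430571L13Rik is known only by the name of a cDNA clone, and its function is not described here. miR-142 is a microRNA of blood cells, and a microRNA lowers the output of messenger RNAs that pair with its seed, mostly in the 3′ untranslated region (UTR).

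The pair Tmem176a and Tmem176b lies on chromosome 6 (GRCm38), arranged head to head on opposite strands. Tmem176a (ENSMUSG00000023367.14) occupies chr6:48840919-48847071 on the plus strand with 7 annotated transcripts. Tmem176b (ENSMUSG00000029810.15) occupies chr6:48833818-48841496 on the minus strand with 12 transcripts. Their annotated spans overlap, but their exons share only 81 bases, which is 2.13% of the 3810 exonic bases of Tmem176a and 3.42% of the 2371 of Tmem176b. Reads were counted without regard to strand, so reads within those bases cannot be given to one gene or the other. 6430571L13Rik (ENSMUSG00000037977.6) lies on another chromosome, at chr9:107340602-107352422 on the plus strand, with 2 transcripts.

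The deleted gene gives rise to the 2 mature strands below, shown because their seeds decide which transcripts miR-142 can pair with. They are RefSeq sequences (GRCm38.p6), written 5′ to 3′ with the seed, bases 2 to 8, in capitals. The 3p strand lies at chr11:87756903-87756925 and the 5p strand at chr11:87756867-87756887, both on the plus strand.
mmu-miR-142a-3p: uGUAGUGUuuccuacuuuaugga
mmu-miR-142a-5p: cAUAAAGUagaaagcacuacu

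None of the 3 genes held a complement of either seed in its longest annotated 3′ UTR. The letters searched were ACACTAC for the 3p strand, AACACTA for the 3p strand with its start shifted by 1 base, and ACTTTAT for the 5p strand. The complement of bases 2 to 7 followed by an A also counted as a match. The 3′ UTR searched was 724 bases long in Tmem176a, 235 in Tmem176b and 1667 in 6430571L13Rik, against a median of 1185 bases over the 11127 tested genes with one. Of those genes, 12.1% held a match for the 3p strand, 15.4% for the shifted one and 23.5% for the 5p strand. A short 3′ UTR such as that of Tmem176b has fewer positions at which a match could fall.

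Over the whole longest coding transcript of each gene, a single match was found, in Tmem176b. It is printed below with its flanks, the match to the 5p seed in capitals. It starts at base 506 of the 1648 bases of Tmem176b-202 (chr6:48840469-48840475, minus strand), inside exon 1 of 7 and within the 5′ UTR of 628 bases. These bases were exonic in 2 of the 12 annotated transcripts of Tmem176b.
Tmem176b-202: agacaactgagACTTTATtcctggaacct

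Matches for the 3p, shifted 3p and 5p strands were present in 24.4%, 23.6% and 30.3% of the 11145 coding transcripts compared in the same way. Matching letters are a description of sequence and do not show pairing.

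The targeted gene was first read in every library. Mir142 itself had 0 counts in all 6 libraries. Mir142b, annotated on the opposite strand of the same locus, was read at 6.33 ± 2.50 CPM in WT libraries and at 0.370 ± 0.0244 CPM in KO libraries (SD, n = 3 per group). CPM are read counts relative to library sizes scaled with the TMM (trimmed mean of M values) method. Foxp3 was at 566 ± 29.5 CPM in WT and 689 ± 54.9 CPM in KO libraries, and all 6 defining Treg genes read here (Cd3e, Cd4, Foxp3, Il2ra, Ctla4 and Ikzf2) exceeded 1 CPM in every WT library. Their summed level was 4608 to 5378 CPM in WT and 6416 to 7331 CPM in KO libraries, a difference carried by Il2ra (726 to 799 CPM in WT and 2258 to 3073 CPM in KO). Without Il2ra the sums overlapped, at 3809 to 4652 CPM in WT and 4158 to 4890 CPM in KO, and Cd3e and Cd4 were lower in every KO library than in any WT library. KO replicate 1 stood apart from the other libraries in genes of other cell types, and its values are given separately for each of the 3 genes.

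Tmem176a, the plus-strand gene of the pair, had 46, 45 and 31 reads in WT replicates 1, 2 and 3 and 1177, 624 and 788 reads in KO replicates 1, 2 and 3. In CPM, these were 2.83, 1.84 and 1.71 in WT and 65.3, 47.2 and 53.9 in KO. The groups did not overlap, and the lowest KO library lay 16.7-fold above the highest WT library. The mean rose from 2.13 ± 0.612 CPM to 55.5 ± 9.15 CPM (SD, n = 3 per group), a fitted log2 fold change of 4.71 (SE 0.22), or 26.2-fold. In bulk RNA, a larger share of expressing cells and more RNA in each expressing cell cannot be told apart, and this holds for every value here. The WT values rest on few reads. At 31 reads the counting error alone was 18.0%, against 2.91% for the 1177 reads of KO replicate 1.

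Tmem176b, the minus-strand partner, had 69, 73 and 67 reads in WT replicates 1 to 3 and 2225, 1171 and 1436 in KO replicates 1 to 3. Its levels were 4.25, 2.99 and 3.71 CPM in WT and 123, 88.7 and 98.3 CPM in KO libraries. Again no library of one group lay within the other, with the lowest KO library 20.9-fold above the highest WT library. The mean rose from 3.65 ± 0.631 to 103 ± 18.0 CPM, a log2 fold change of 4.83 (SE 0.18), or 28.5-fold. Within each group the order of the extremes was shared in part with Tmem176a. WT replicate 1 and KO replicate 1 were the highest of their groups for both genes, and KO replicate 2 was the lowest KO library for both.

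6430571L13Rik, the unlinked gene, had 79, 102 and 91 reads in WT and 921, 717 and 583 reads in KO replicates 1 to 3. Its levels were 4.87, 4.18 and 5.03 CPM in WT and 51.1, 54.3 and 39.9 CPM in KO libraries. The groups were separated by a smaller gap than for the Tmem176 pair, since the lowest KO library was 7.93-fold above the highest WT library. Its mean rose from 4.69 ± 0.452 to 48.4 ± 7.56 CPM, a log2 fold change of 3.37 (SE 0.15), or 10.3-fold. Here KO replicate 2 was the highest KO library and KO replicate 3 the lowest, which differs from the order seen for both Tmem176 genes.

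**Figure D1:**
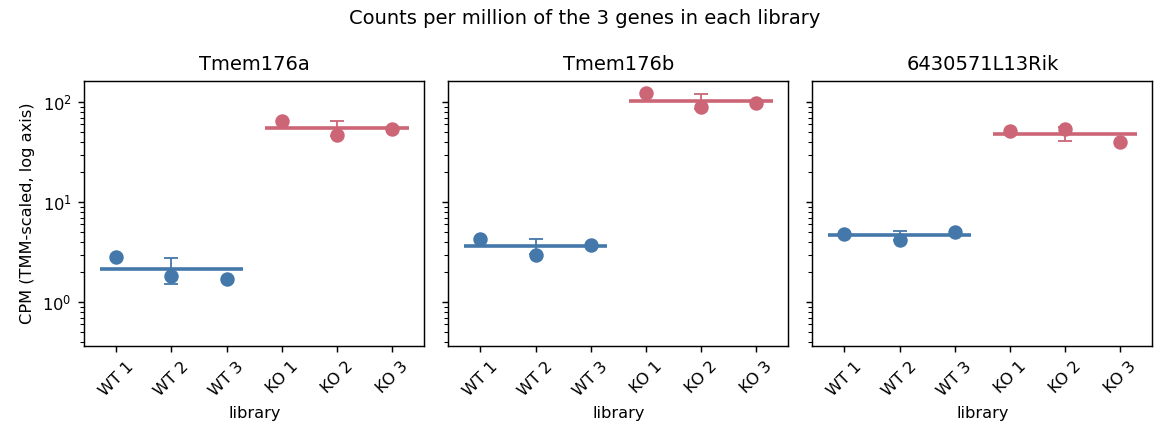
Levels of Tmem176a, Tmem176b and 6430571L13Rik (panels) in the 6 libraries (horizontal axis), in CPM on a log axis. Points are single libraries, blue for WT and red for KO, and lines with bars are the mean ± SD of 3 libraries. Every KO library lies above every WT library, with the lowest KO library 16.7-fold, 20.9-fold and 7.93-fold above the highest WT library.

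All 3 genes had every KO library above every WT library, a property that 2585 of the 11658 tested genes shared (22.2%). Since the rule used this contrast, nothing is read from that count. Among all tested genes, 1350 (11.6%) were called higher and 847 (7.27%) lower in KO cells at a false discovery rate (FDR) under 0.05 in edgeR's quasi-likelihood F (QLF) test. With library size alone as the scaling, the split was 1064 higher and 1201 lower. The median log2 fold change over all tested genes was 0.02.

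The members were chosen near the top of the list by p-value, where they took ranks 2 (Tmem176b), 5 (6430571L13Rik) and 6 (Tmem176a). By size of the rise they stood lower, at ranks 60, 122 and 61 in the same order. The genes beside them in the order of p-values were Bzrap1 (rank 1, log2 fold change 8.63), Adam9 (rank 3, 3.14) and Fam101b (rank 4, -2.94). Just after them came the intermediate filament gene Vim (rank 7, 2.03) and the actin regulator Enah (rank 8, 6.18). The fold changes of the 3 genes lay between those of Bzrap1 and Fam101b, with Enah above and Vim below all 3.

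The spread between libraries of a group was read next. As a percentage of the mean, the SD was 28.7% in WT and 16.5% in KO libraries for Tmem176a, 17.3% and 17.4% for Tmem176b, and 9.62% and 15.6% for 6430571L13Rik. The larger WT figure for Tmem176a goes with its smallest counts. Against the WT mean, the KO libraries stood at 30.7, 22.2 and 25.3-fold for Tmem176a, 33.8, 24.3 and 26.9-fold for Tmem176b, and 10.9, 11.6 and 8.50-fold for 6430571L13Rik.

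The ratio between the genes of the Tmem176 pair overlapped between WT and KO libraries. The ratio of Tmem176b to Tmem176a reads was 1.50, 1.62 and 2.16 in WT replicates 1 to 3, with a mean of 1.76 ± 0.352. It was 1.89, 1.88 and 1.82 in the KO replicates, with a mean of 1.86 ± 0.036. The KO ratios lay inside the WT range, and they varied less than the WT ratios, which rest on 31 to 73 reads per gene and library. Per transcript length, the ratio was 1.65 ± 0.329 in WT and 1.74 ± 0.0336 in KO cells. By contrast, the ratio of Tmem176b to 6430571L13Rik reads was 0.873, 0.716 and 0.736 in WT (mean 0.775 ± 0.0857) and 2.42, 1.63 and 2.46 in KO libraries (mean 2.17 ± 0.466). That ratio did not overlap between groups, so the Tmem176 gene rose by more than 6430571L13Rik did in every KO library, whichever WT library served as the reference.

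CPM, in which marker genes and other genes are given, is not scaled to transcript length. Levels of the 3 genes were therefore set against each other per kilobase of the longest annotated coding transcript (1540 bases for Tmem176a, 1648 for Tmem176b and 2599 for 6430571L13Rik). On that scale Tmem176b was the highest of the 3 genes in KO cells, at 62.8 ± 10.9 CPM per kb, followed by Tmem176a at 36.0 ± 5.94 and 6430571L13Rik at 18.6 ± 2.91. In WT cells the means were 2.21 ± 0.383 for Tmem176b, 1.81 ± 0.174 for 6430571L13Rik and 1.38 ± 0.397 for Tmem176a, and the WT libraries of neighbouring genes in that order overlapped, whereas in KO cells the libraries of the 3 genes did not. Among the 11595 tested genes with a length, Tmem176b moved from above 19.2% of them in WT to above 91.0% in KO cells. Tmem176a moved from above 14.1% to above 81.3%, and 6430571L13Rik from above 16.8% to above 63.1%.

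**Figure D2:**
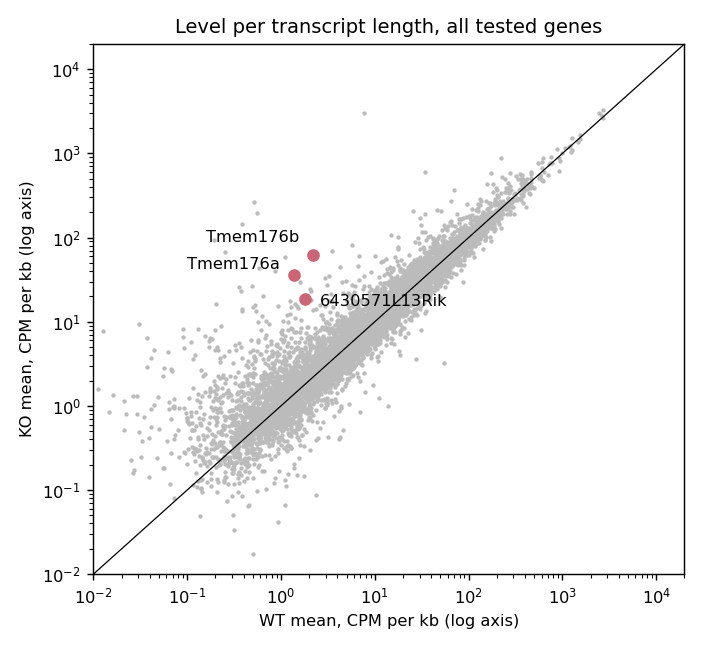
Mean level of each tested gene in WT (horizontal) and KO (vertical) libraries, in CPM per kb of the longest coding transcript, both on log axes, with the line of equal levels. Grey points are single genes and red points the 3 genes described. Tmem176b lies highest at 62.8 CPM per kb in KO cells, and 6430571L13Rik lies closest to the diagonal of the 3.

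Over the 6 libraries, the log2 levels of Tmem176a and Tmem176b had a Pearson correlation of 0.998, and those of 6430571L13Rik correlated with them at 0.990 and 0.995. These are descriptions over 6 points that fall into the 2 genotype groups, and the points share their libraries and the difference between groups that chose the genes. The 5 tested genes most like the 3 by mean correlation were Vim (0.998), Rraga (0.996), Npc1 (0.996), Il2rb (0.996) and Trove2 (0.995). Their levels are given as values only, since the 3 genes were chosen for their rise. Vim went from 481 ± 37.2 to 1960 CPM (SD 50.04), and Il2rb, a receptor chain for interleukin-2 and interleukin-15, from 1029 ± 16.6 to 2098 ± 3.74 CPM. Rraga, a small GTPase of nutrient signalling at the lysosome, went from 45.3 ± 2.04 to 81.3 ± 1.55 CPM, and Npc1, a lysosomal cholesterol transporter, from 88.4 ± 5.47 to 162 ± 4.14 CPM. Trove2, an RNA-binding protein, went from 13.2 ± 0.112 to 34.0 ± 1.47 CPM.

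The transcripts of other cell types were read beside the 3 genes, because macrophages, dendritic cells and some innate and type 17 lymphocytes are known to express Tmem176a and Tmem176b. The summed level of 13 macrophage and monocyte genes was 50.1 to 57.8 CPM in WT libraries and 2966, 162 and 83.9 CPM in KO replicates 1, 2 and 3, with 13 of 13 genes highest in KO replicate 1. The 10 conventional dendritic cell genes summed to 47.5 to 54.5 CPM in WT and 4425, 258 and 354 CPM in KO replicates 1 to 3. The macrophage and dendritic cell sums were higher in every KO library than in any WT library, with KO replicate 1 far above the other KO libraries. In KO replicates 2 and 3 the dendritic cell sum rested on Cd74 (194 and 273 CPM, against 44.7 to 51.5 in WT) and 3 class II genes such as H2-Aa (25.5 and 28.9 CPM, against 0.410 to 0.677) and H2-Eb1 (22.0 and 31.1 CPM). Without these 4 genes it was 0.779 to 1.22 CPM in WT and 138, 0.681 and 0.684 CPM in KO replicates 1, 2 and 3. Most of the 4425 CPM in KO replicate 1 therefore also came from these 4 genes. In the macrophage list, 10 of 13 genes were above every WT library in both KO replicates 2 and 3 and 1, Cd68, was below. Of all tested genes, 22.2% had every KO library above every WT library. Some of the 10 rest on few reads. In KO replicate 3, Spic was at 0.0684 and Cd14 at 0.137 CPM, where 3 counts would have been 0.205 CPM. Ccr2 made up 81.5 and 60.9 CPM of the sum in KO replicates 2 and 3, against 37.2 to 49.1 CPM in WT. The 7 neutrophil genes were at 0.221 to 0.328 CPM in WT and 815, 0.303 and 4.04 CPM in KO replicates 1 to 3, and 7 B cell genes at 31.6 to 42.6 CPM in WT and 290, 8.71 and 12.7 CPM in KO. From the genes of group 3 innate lymphoid and gamma-delta T cells, Il23r, Il1r1, Kit and Blk summed to 1.99 to 2.53 CPM in WT and 24.8, 5.68 and 7.19 CPM in KO replicates 1 to 3. Kit made up most of that sum in KO replicates 2 and 3, at 4.92 and 6.50 CPM, and Blk in KO replicate 1, at 16.7 CPM.

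The levels of the 3 genes in KO replicate 1 were set beside those in KO replicates 2 and 3. KO replicate 1 was the highest KO library for Tmem176a and Tmem176b, at 65.3 and 123 CPM, but not for 6430571L13Rik. The level in KO replicate 1 over the mean of KO replicates 2 and 3 was 1.29-fold for Tmem176a, 1.32-fold for Tmem176b and 1.09-fold for 6430571L13Rik. Without KO replicate 1 the log2 fold changes were 4.57 for Tmem176a, 4.67 for Tmem176b and 3.31 for 6430571L13Rik. In KO replicates 2 and 3, Tmem176b was at 88.7 and 98.3 CPM. The macrophage lysozyme gene Lyz2 was at 1.14 and 2.19 CPM in those libraries, against 0.123 to 0.410 CPM in WT. The receptor gene Csf1r was at 12.6 and 0.890 CPM (0.492 to 0.830 CPM in WT). The complement gene C1qa was at 6.51 and 0.274 CPM (0.0616 to 0.387 CPM in WT). The dendritic cell integrin gene Itgax was at 0.227 CPM in KO replicate 2 and at 0 in KO replicate 3, against 0 to 0.111 CPM in WT. The adhesion gene Vcam1 of the macrophage list was at 35.1 and 11.2 CPM in KO replicates 2 and 3, against 1.60 to 2.28 CPM in WT. Of that list, 10 of 13 genes were above every WT library in both, some of them on fewer than 3 counts in KO replicate 3. Cd74 and the class II genes of the dendritic cell list were also above every WT library in both. The part that the higher levels of such markers in those libraries have in the levels of the 3 genes was not tested.

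**Figure D3:**
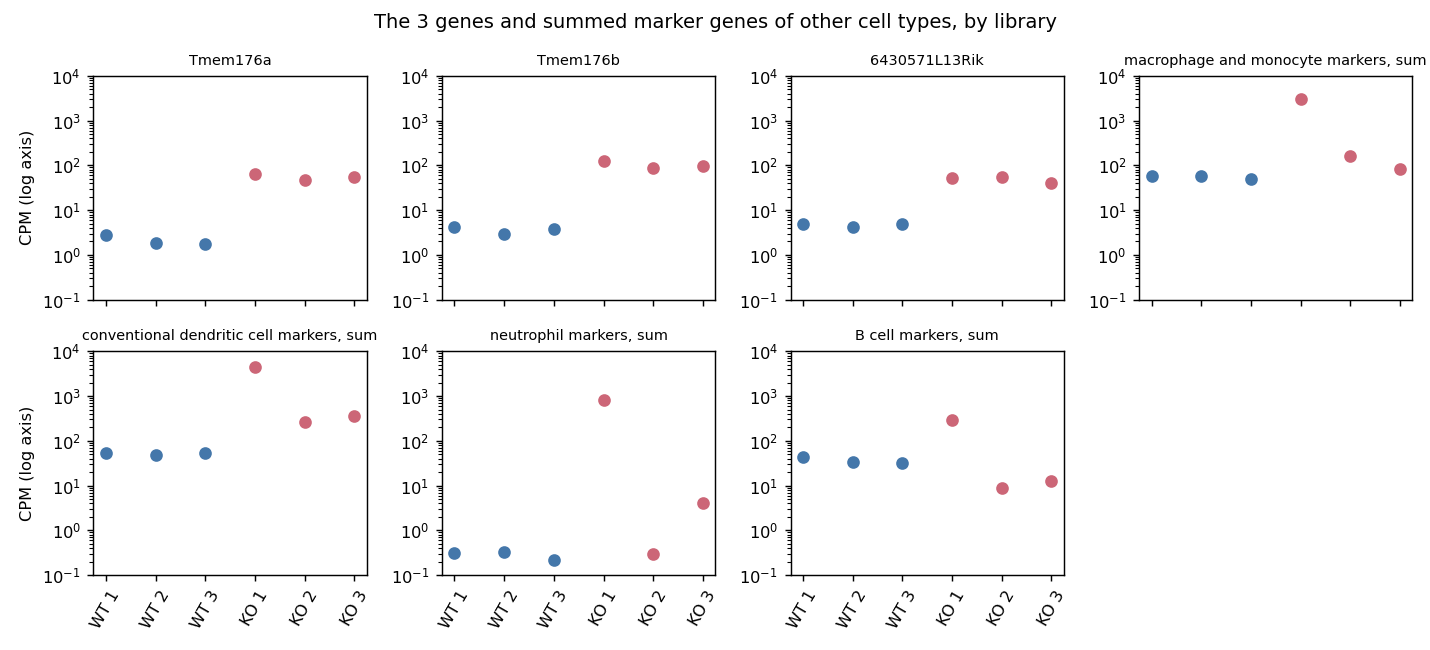
Levels of the 3 genes and the summed levels of marker genes for 4 other cell types (panels) in each library, in CPM on log axes with the same range, blue for WT and red for KO. The marker sums peak in KO replicate 1 (2966 CPM for macrophages and monocytes). That library is also the highest KO library for Tmem176a and Tmem176b, but not for 6430571L13Rik.

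The promoters were compared because the 3 genes moved together. The RefSeq table (GRCm38.p6) held 6 windows of 300 bases for them, from 250 bases before to 50 bases after a start site. They were 2 for Tmem176a, 3 for Tmem176b and 1 for 6430571L13Rik. The start sites of Tmem176a lay 109 to 668 bases beyond those of Tmem176b, so several windows of the pair cover the same DNA. The first windows of both genes, whose start sites are 346 bases apart, shared 155 bases, and the closest start sites shared 208. GC content was 56.7% to 65.7% in the 6 windows, against a median of 52.7% over all 32851 windows. The first window of Tmem176a (chr6:48841233-48841532, plus strand) and the window of 6430571L13Rik (chr9:107340390-107340689, plus strand) are printed because they represent both loci, with matches to the searched motifs in capitals.
Tmem176a: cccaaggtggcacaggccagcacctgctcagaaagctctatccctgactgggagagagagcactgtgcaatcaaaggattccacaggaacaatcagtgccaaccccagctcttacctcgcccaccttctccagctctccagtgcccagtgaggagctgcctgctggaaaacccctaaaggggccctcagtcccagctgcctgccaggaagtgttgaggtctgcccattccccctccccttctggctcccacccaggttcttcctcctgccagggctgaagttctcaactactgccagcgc
6430571L13Rik: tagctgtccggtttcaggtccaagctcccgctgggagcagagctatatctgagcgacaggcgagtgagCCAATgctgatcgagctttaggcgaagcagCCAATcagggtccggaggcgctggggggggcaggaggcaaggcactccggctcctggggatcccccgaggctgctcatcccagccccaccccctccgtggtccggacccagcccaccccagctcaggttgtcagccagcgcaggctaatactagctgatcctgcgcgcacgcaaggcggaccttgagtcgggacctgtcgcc

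Motifs were searched on both strands, and 8 of the 9 are given here. Of all 9, only the CCAAT box (CCAAT) was found, at 182 and 152 bases before the start site of 6430571L13Rik. No window of Tmem176a or Tmem176b held any of the 9, so the loci shared no searched motif. Over all windows, the CCAAT box was in 37.4%, the GC box (GGGCGG) in 35.7% and the TATA box (TATAAA) in 13.6%. The STAT motif (TTCNNNGAA) was in 8.30% and the AP-1 motif (TGANTCA) in 7.81%. The CREB motif (TGACGTCA) was in 1.79%, the PU.1 motif (GAGGAAGT) in 3.20% and the interferon-stimulated element in 3.44%. The absence of a match says only that these letters are not in these windows.

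The genes nearest to the Tmem176 pair on chromosome 6 were compared between the groups. The pair was chosen for its rise, so its size is not set against theirs. Of the 10 genes of the matrix nearest on each side, 15 were tested, 3 were called higher (over all tested genes, 11.6%) and 0 lower (7.27%), with a median log2 fold change of 0.06 against 0.02 over all tested genes. On the lower side lie the Gimap genes, which encode GTPases of lymphocyte survival. The nearest, Gimap3 at 63.0 kb, went from 1608 to 1965 CPM, a log2 fold change of 0.29 (SE 0.12, QLF FDR = 0.134), and Gimap4 was called higher by 0.51 (SE 0.10, QLF FDR = 0.0164). Gimap4 kept its call in 7 of 11 alternative settings. On the upper side the nearest gene, Aoc1 at 25.8 kb, did not pass the filter and was at 0.0505 CPM in WT and 0.546 CPM in KO libraries. Further out, Igf2bp3, an RNA-binding protein, rose from 4.56 to 44.6 CPM (log2 fold change 3.28, SE 0.23, QLF FDR = 0.000757) at a distance of 238 kb. Gpnmb, a membrane glycoprotein of phagocytes, rose from 1.46 to 6.30 CPM (log2 fold change 2.10, SE 0.40, QLF FDR = 0.0141) at 189 kb. Igf2bp3 kept its call in all 11 settings and Gpnmb in 9.

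Around 6430571L13Rik, 18 of 20 neighbours on chromosome 9 were tested, 4 were called higher and 1 lower, against 11.6% and 7.27% of all tested genes, with a median log2 fold change of -0.03. The 4 higher genes all lay on the lower side, within 109 kb. Hemk1, a methyltransferase gene with a gap of 2.25 kb to 6430571L13Rik, went from 21.5 to 42.5 CPM (log2 fold change 0.98, SE 0.19, QLF FDR = 0.0138). Cish, a cytokine-induced inhibitor of STAT5 signalling at 37.8 kb, went from 235 to 471 CPM (SE of the log2 fold change 0.13, QLF FDR = 0.00394). Mapkapk3, a kinase at 50.7 kb, rose by 0.79 (SE 0.13, QLF FDR = 0.00849), and Dock3, at 109 kb, rose by 2.67 from a WT level of 0.243 CPM (SE 0.41, QLF FDR = 0.00551). On the other side the first gene was Cacna2d2 at 47.2 kb, with a log2 fold change of -0.45 (SE 0.27, QLF FDR = 0.281), and Tusc2 at 211 kb was called lower by -0.82 (SE 0.22, QLF FDR = 0.0435). Cish kept its call in all 11 alternative settings, Mapkapk3 in 10, Hemk1 in 9 and Tusc2 in 6, and Dock3 in the 8 in which it could be tested. 6430571L13Rik itself, at 3.37, was chosen for its rise, so its size is not compared with theirs.

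**Figure D4:**
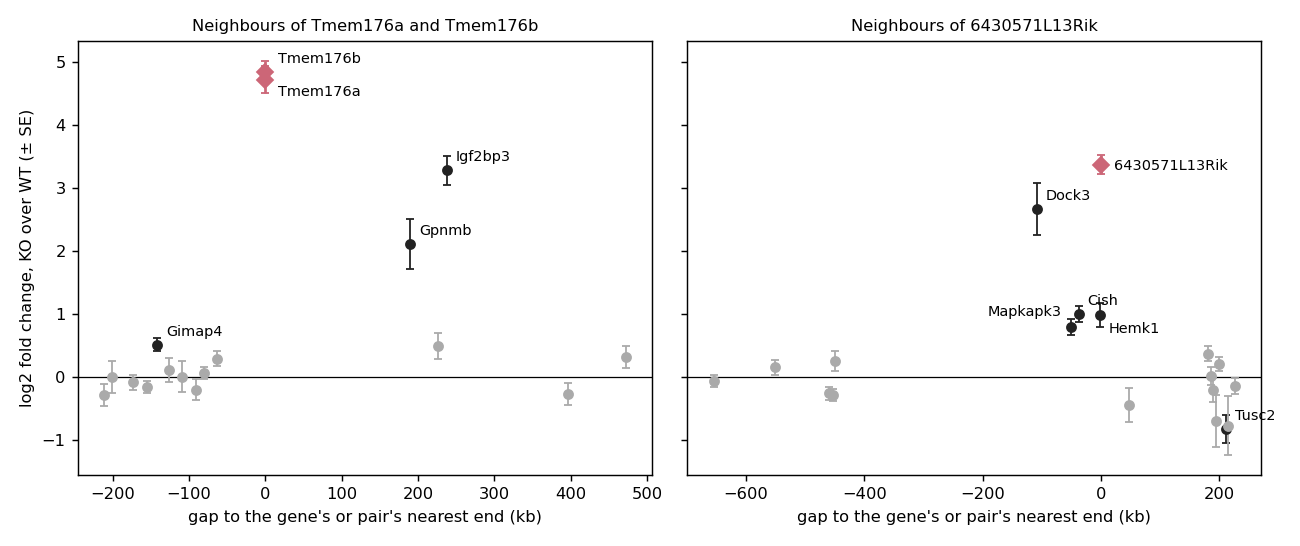
Log2 fold change (KO over WT, ± SE) of the tested neighbouring genes against the gap in kb to the nearest end of the Tmem176 pair (left) or of 6430571L13Rik (right), below 0 for the lower side. Red diamonds are the 3 genes, black points neighbours called at FDR under 0.05 and grey points the others. The nearest tested neighbour of the pair, Gimap3 on the lower side, lies at 0.29. On the upper side the nearest gene, Aoc1, was not tested and is not shown. Below 6430571L13Rik, 4 genes lie between 0.79 and 2.67.

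The MS4A genes, the family that Tmem176 proteins resemble, were not called in either direction. Of 16 in the matrix, 6 were tested and 0 were called by edgeR's QLF test, with 0 at an unadjusted p under 0.05 and 0 called by DESeq2, where 11.6% of all tested genes were called higher and 7.27% lower by the QLF test. Their median log2 fold change was 0.07. Ms4a4b, a T cell member, was at 575 CPM in WT and 500 CPM in KO libraries, a log2 fold change of -0.20 (SE 0.11, QLF FDR = 0.251). Among the 6 tested MS4A genes, 2 were over 2-fold higher in KO replicate 1 than in the other KO libraries. The share of all tested genes with that pattern was not counted, so nothing is read from it.

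Of 15 genes that mark or drive type 17 lymphocytes, in which Tmem176 genes are known to be expressed, 9 were tested, 2 were called higher and 0 lower, with a median of 0.11. Over all tested genes 11.6% were called higher and 7.27% lower. The genes called were Ahr, a ligand-activated transcription factor, which rose from 49.7 to 104 CPM (1.07, SE 0.09, QLF FDR = 0.000996), and Stat3, which rose by 0.36 (SE 0.08, QLF FDR = 0.0252). Ahr kept its call in 11 of 11 alternative settings and Stat3 in 3. The cytokine genes Il17a and Il22 had 0 counts in all 6 libraries, where 3 counts would have been 0.123 to 0.227 CPM.

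Of 14 inflammasome genes, 12 were tested, 3 were called higher and 1 lower (11.6% and 7.27% over all tested genes), with a median of 0.27. Casp1, the inflammatory caspase, rose by 0.71 (SE 0.11, QLF FDR = 0.00771), the channel gene Panx1 by 0.42 (SE 0.09, QLF FDR = 0.0212) and the kinase gene Nek7 by 0.35 (SE 0.10, QLF FDR = 0.0458). P2rx7, the receptor for extracellular ATP, fell from 333 to 186 CPM, a log2 fold change of -0.84 (SE 0.14, QLF FDR = 0.00877). Casp1 and P2rx7 kept their calls in 11 of 11 alternative settings, Panx1 in 7 and Nek7 in 3. Nlrp3, the sensor on which the Tmem176b protein is described to act, did not pass the filter. It was at 0 in all WT libraries and at 12.9, 0 and 0.0684 CPM in KO replicates 1, 2 and 3. Its reads thus lay almost entirely in KO replicate 1, the library richest in markers of other cells. The source of these reads was not tested.

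Among 14 genes of membrane traffic, which hold tetraspanins and lysosomal membrane proteins, 13 were tested, 3 were called higher and 1 lower (11.6% and 7.27% over all tested genes), with a median of 0.35. The lysosomal genes Laptm4a, from 97.3 to 248 CPM (1.35, SE 0.11, QLF FDR = 0.000996), and Lamp2, from 47.3 to 104 CPM (1.13, SE 0.27, QLF FDR = 0.0294), were higher, as was the tetraspanin gene Cd151, from 11.03 to 38.3 CPM (1.80, SE 0.23, QLF FDR = 0.00385). The tetraspanin gene Cd9 fell from 45.8 to 32.8 CPM (-0.48, SE 0.11, QLF FDR = 0.0213). Laptm4a and Cd151 kept their calls in 11 of 11 alternative settings, Lamp2 in 8 and Cd9 in 6. The 3 genes, at log2 fold changes of 3.37 to 4.83, were chosen for their rise, so their size is not compared with these values.

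**Figure D5:**
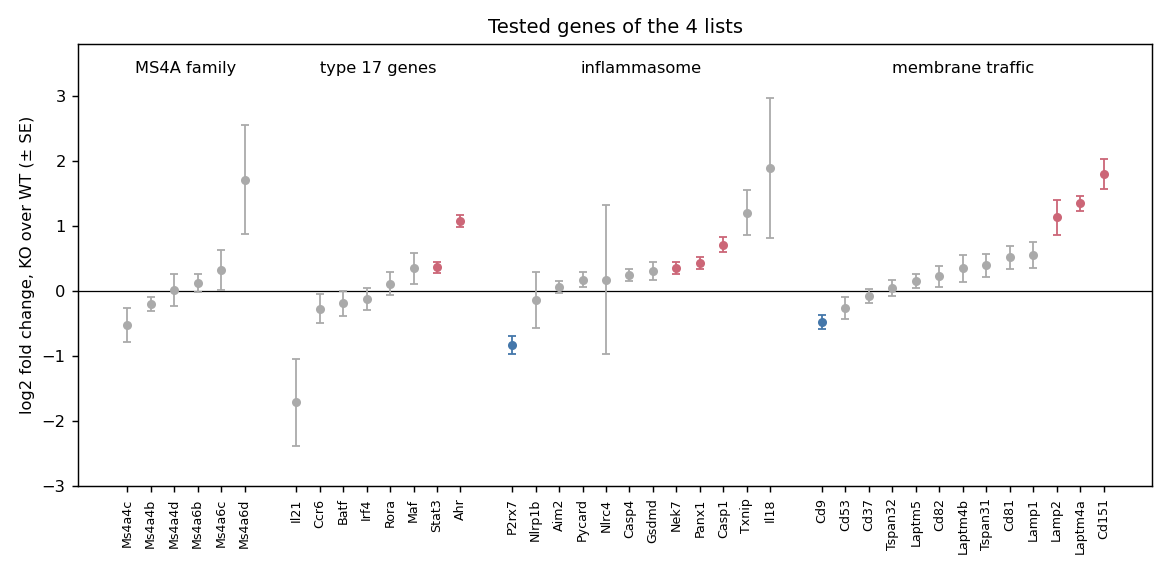
Log2 fold change (KO over WT, ± SE) of the tested genes of the 4 lists, ordered by size within each list, with 1 tested type 17 gene not plotted. Red points were called higher, blue points lower and grey points neither at FDR under 0.05. No MS4A gene was called, and the largest called rise is 1.80 for Cd151.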

How the data were processed

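The authors sequenced total RNA of sorted Treg cells as 51-base single-end reads, aligned them to mm10 with HISAT and counted them on genes with featureCounts, ignoring strand. The labels also name CASAVA and edgeR, and versions are not given in the sources used here. The deposited matrix holds raw counts per gene, without normalization, for 6 libraries (13883069 to 24042994 counts each). All sample columns were used.

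Genes with CPM above 1 in at least 3 libraries were tested, KO against WT, with edgeR 4.0.16 (R 4.3.3), TMM scaling, the QLF test and Benjamini-Hochberg adjustment over all tested genes, at an FDR under 0.05. SEs are from the fitted model. Replicates of a group differed by more than sampling noise in every pair. The fit was tested on simulated data with less spread between replicates than these libraries have, so that test does not cover their full spread. Genes were matched by symbol to the GRCm38 annotation (24027 matched, 394 not). An interval from counts or a floor covers counting error only.

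The 3 genes and the lists were chosen with earlier results of these data known. Named genes were the 3 genes, up to 4 called genes per direction and the defining gene of each list, called position neighbours, the 5 most correlated genes (log2 CPM, prior count 2), neighbours by p-value rank, Foxp3 and Mir142b. Other genes beside these (Gimap3, Aoc1, Cacna2d2, Mir142, Il17a, Il22 and cell type markers, picked from their lists) were named as the nearest neighbour or for a zero or marker level, after their values were seen. A gene of the lists and a searched motif are left out of the text. Alternatives were RLE factors, library size alone, DESeq2 1.42.0, no filter, a block on replicate number and leaving out each library.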

Additional observations from a re-analysis of the deposited data

How the results depend on the processing

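The fold changes of the 3 genes moved by less than the replicate SD under every alternative run. Leaving out 1 library gave log2 fold changes of 4.57 to 4.93 for Tmem176a, 4.67 to 4.94 for Tmem176b and 3.29 to 3.48 for 6430571L13Rik. The replicate numbers did not pair the samples, since same-numbered deviations correlated at 0.0731, -0.0124 and -0.188. With the replicate block the 3 values were 4.71, 4.82 and 3.36, and 1606 genes were called in place of 2197.

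Leaving out 1 library gave 691 to 2340 called genes, with 1022, 691 and 790 without WT replicates 1, 2 and 3, where fewer samples were fitted. The same runs gave 0 to 1 calls among MS4A genes (1 without KO replicate 1), 1 to 2 among type 17 genes (1 without any WT replicate or KO replicate 3), 2 to 6 among inflammasome and 2 to 6 among membrane traffic genes (2 without any WT replicate), 1 to 3 among neighbours on chromosome 6 (1 without WT replicate 2 or 3) and 2 to 4 on chromosome 9 (2 without WT replicate 2 and 3 without WT replicate 3 or KO replicate 3). Without the filter 1 MS4A gene was called higher, whereas the 1 called without KO replicate 1 was lower. The direction of calls also changed without KO replicate 1. Type 17 genes were then 1 higher and 1 lower, against 2 and 0 in the full fit. Inflammasome genes were 3 higher and 3 lower, against 3 and 1. The type 17 count was 1 with library size alone, without the filter and under the replicate block. The cause was not tested.

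The WT values rest on 31 to 102 reads per gene and library, which limits the precision of the fold changes.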
